A study of Mus musculus with 12 samples.

Results

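Described here are 10 genes, 9 of them encoding secreted peptide precursors or a granin and 1 encoding a peptide receptor: Cartpt, Penk, Pdyn, Cck, Tac1, Crh, Nts, Adcyap1 and Scg2, with the receptor gene Qrfpr. Every probe set whose gene symbol, current or older, was 1 of these 10 was taken, which gave 12 probe sets among the 45101 on the array. Tac1 and Adcyap1 had 2 probe sets and the other 8 genes had 1. Cartpt and Qrfpr were included because they were known to differ between mutant and wild-type adults, so the adult mutant comparison is described below without a test for any of the 10 genes.

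RNA of 129/Sv mice was measured in 4 groups of 3 arrays, 12 in all. The adult groups were dorsal cerebral cortex of male wild types aged 155, 112 and 101 days and of male Qkf gt/gt mutants aged 155, 112 and 99 days. The embryonic groups were dorsal telencephalon at E12.5 from wild types and Qkf gt/gt mutants of unlabelled sex, with wild type 1 and mutant 1 from the first of 2 parental crosses and the other 4 embryos from the second. Qkf is an older name of Kat6b, a histone acetyltransferase gene, and gt denotes a gene-trap allele that the mutants carry on both chromosomes. The study asked which genes depend on this enzyme at each stage. The labels do not say whether an embryonic array held RNA of 1 embryo or of several. They name each adult mouse separately.

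Neuropeptides are made as longer precursors, packed with granins such as secretogranin II (Scg2) into dense-core vesicles, cut at basic residues by prohormone convertases, trimmed by carboxypeptidase E and often amidated at their C-terminus. They are released on strong or repeated firing and act on G protein-coupled receptors at some distance from the site of release. In the neocortex Cck is made by many pyramidal cells and by a class of interneurons, whereas Crh, Penk, Tac1 and Pdyn mark smaller sets of cells. Cartpt encodes the CART peptides, best known from hypothalamus and nucleus accumbens, and Qrfpr encodes the receptor for the RFamide peptide QRFP.

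Several of these genes are classical targets of cyclic AMP signalling, so the stretch of 210 bases before the annotated transcription start is shown for some of them. Shown are the 2 genes that differed in adult mutants, and Scg2, Cck and Tac1, 3 of the genes that were higher in adults. Pdyn and Adcyap1 were also higher in adults and are not shown. Scg2, Cck and Tac1 all hold letters marked in capitals, whereas the Pdyn windows held none of these. The sequences shown therefore do not tell how common these letters are among the genes higher in adults. The sequences are from RefSeq on GRCm38.p6, 5′ to 3′ along the gene, and capitals mark the letters TGACG on either strand, the half-site of the cyclic AMP response element. The windows are chr13:99900684-99900893 (minus strand) for Cartpt, chr3:36222276-36222485 (minus) for Qrfpr, chr1:79440027-79440236 (minus) for Scg2, chr9:121495695-121495904 (minus) for Cck and chr6:7554851-7555060 (plus) for Tac1.
Cartpt: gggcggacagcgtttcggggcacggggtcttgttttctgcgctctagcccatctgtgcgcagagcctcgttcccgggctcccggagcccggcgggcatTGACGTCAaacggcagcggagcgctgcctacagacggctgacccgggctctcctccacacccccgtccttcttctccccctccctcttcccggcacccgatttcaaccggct
Qrfpr: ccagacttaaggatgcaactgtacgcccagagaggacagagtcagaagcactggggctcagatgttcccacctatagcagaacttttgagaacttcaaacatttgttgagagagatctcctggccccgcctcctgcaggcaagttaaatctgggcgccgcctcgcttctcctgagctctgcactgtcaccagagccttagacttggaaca
Scg2: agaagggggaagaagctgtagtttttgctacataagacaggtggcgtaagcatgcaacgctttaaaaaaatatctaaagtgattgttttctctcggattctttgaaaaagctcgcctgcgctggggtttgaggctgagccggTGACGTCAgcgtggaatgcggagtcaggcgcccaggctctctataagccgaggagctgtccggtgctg
Cck: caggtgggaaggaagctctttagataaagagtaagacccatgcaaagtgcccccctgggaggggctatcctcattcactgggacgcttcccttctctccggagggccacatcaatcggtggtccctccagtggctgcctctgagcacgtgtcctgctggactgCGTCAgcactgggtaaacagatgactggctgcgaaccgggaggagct
Tac1: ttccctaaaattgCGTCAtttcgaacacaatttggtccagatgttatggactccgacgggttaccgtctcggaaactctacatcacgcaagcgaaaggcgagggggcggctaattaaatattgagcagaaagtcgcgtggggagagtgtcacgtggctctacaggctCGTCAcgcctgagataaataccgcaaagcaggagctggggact

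Promoter windows of 300 bases, from 250 before to 50 after the start, were listed for 8 of the 10 genes, with 2 starts each for Pdyn and Adcyap1. The full palindrome TGACGTCA lay in the windows of Cartpt, 112 bases before the start, and of Scg2, 68 bases before it. It was in 1.79% of all 32851 windows. The related letters TGCGTCA, searched on both strands, lay 49 bases before the start of Cck and 199 bases before that of Tac1, against 2.12% of all windows. The half-site TGACG, which overlaps both of these motifs, was in 7 of the 10 windows of 6 genes (Scg2, Tac1, Cck, Nts, Cartpt and Adcyap1), against 20.8% of all windows. The 2 Adcyap1 windows overlap, and the same site, 91 and 242 bases before their starts, counts in both. The Qrfpr and Pdyn windows held none of these 3 sets of letters. Also searched were CACGTG, an E-box, in 2 of the 10 windows against 7.15% of all, and TATAA, in 3 against 24.9%. These matches describe the letters in the windows only.

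Values are log2 expression values as deposited, with a floor of 2.19 shared by all arrays, and differences measured from the floor are compressed. A probe set entered the tests where its value was over 4 on at least 3 of the 12 arrays, which 20292 of the named probe sets met. Of the 12 probe sets here 10 met it, and the second Tac1 probe set (1431883_at) and the Nts probe set did not. Tests are limma's with Benjamini-Hochberg adjustment over the 20292 probe sets, and a probe set was called under an adjusted p of 0.05. SE is limma's moderated standard error, from a spread that all 4 groups share. Probe sets differ in how they respond, so levels are compared only within a probe set. In RNA from whole tissue, fewer cells of a type and less RNA per cell cannot be told apart.

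The main Kat6b probe set stood between 9.35 and 9.72 in adult wild types and between 6.92 and 7.25 in adult mutants, and between 11.28 and 11.42 against 6.22 to 7.72 in embryos, so every label fitted its genotype. The cortical neuron genes Slc17a7 (10.34 to 11.71) and Camk2a (12.21 to 13.02) were high in all adults, and the dorsal progenitor genes Pax6 (10.05 to 10.59) and Emx1 (7.41 to 8.16) in all embryos. The actin control, read as its 3 prime minus its 5 prime probe set, was 1.91 on adult mutant 1 and 1.47 on adult mutant 2, against 1.06 to 1.13 on the other 4 adults. Ttr, a choroid plexus transcript, was 15.16 on adult mutant 3 and 6.78 to 9.18 on the other adults.

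Cartpt was higher in the mutant adult cortex. Its values were 4.62, 4.80 and 3.91 in wild types 1 to 3 and 5.95, 5.93 and 5.57 in mutants 1 to 3. The groups did not overlap, since every mutant was above every wild type. The means were 4.44 ± 0.47 (SD, n = 3) and 5.82 ± 0.22 (n = 3), a log2 difference of 1.37 (SE 0.20). Within the mice of like age the mutant was higher by 1.33 at 155 days, by 1.13 at 112 days and by 1.66 in the pair of 101 and 99 days. With any 1 of the 6 adult arrays left out, the difference ran from 1.11 to 1.55. Such ranges, here and for Qrfpr, come from the comparison by which both genes were included and are descriptions only. The actin control was higher on mutants 1 and 2 than on the other adults, as given above, and its part in the values of Cartpt and Qrfpr was not tested.

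Qrfpr was lower in the mutant adult cortex. It stood at 5.25, 5.86 and 5.67 in wild types and at 4.20, 3.90 and 4.25 in mutants. Here too the groups did not overlap, with every mutant below every wild type. The means were 5.59 ± 0.31 (n = 3) and 4.12 ± 0.19 (n = 3), a log2 difference of -1.48 (SE 0.16). By age pair the mutant differed from the wild type by -1.05, -1.96 and -1.42, and with any 1 adult array left out by -1.65 to -1.35. Its only probe set lies near the low end of the array's range, and Qrfp, the gene of its ligand, was not analysed here. The proposed CART receptor gene Gpr160 was at the floor of 2.19 on every adult and embryonic array.

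Over all 12 arrays, the probe sets with the pattern most like that of Cartpt were those of the hexokinase-family gene Hkdc1 (Pearson r = 0.992), Psg16 (0.989) and Lmna, which encodes the A-type nuclear lamins (0.986). For Qrfpr they were the small GTPase gene Rheb (0.982), the metalloproteinase inhibitor gene Timp2 (0.982) and Rab43 (0.978). These values rank 20292 probe sets over 12 arrays that share the same split by stage and are descriptions only. Timp2 stood at 7.98 ± 0.38 (n = 3) in adult wild types, 7.05 ± 0.22 (n = 3) in adult mutants and 4.90 and 4.97 on average in wild-type and mutant embryos.

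**Figure D1:**
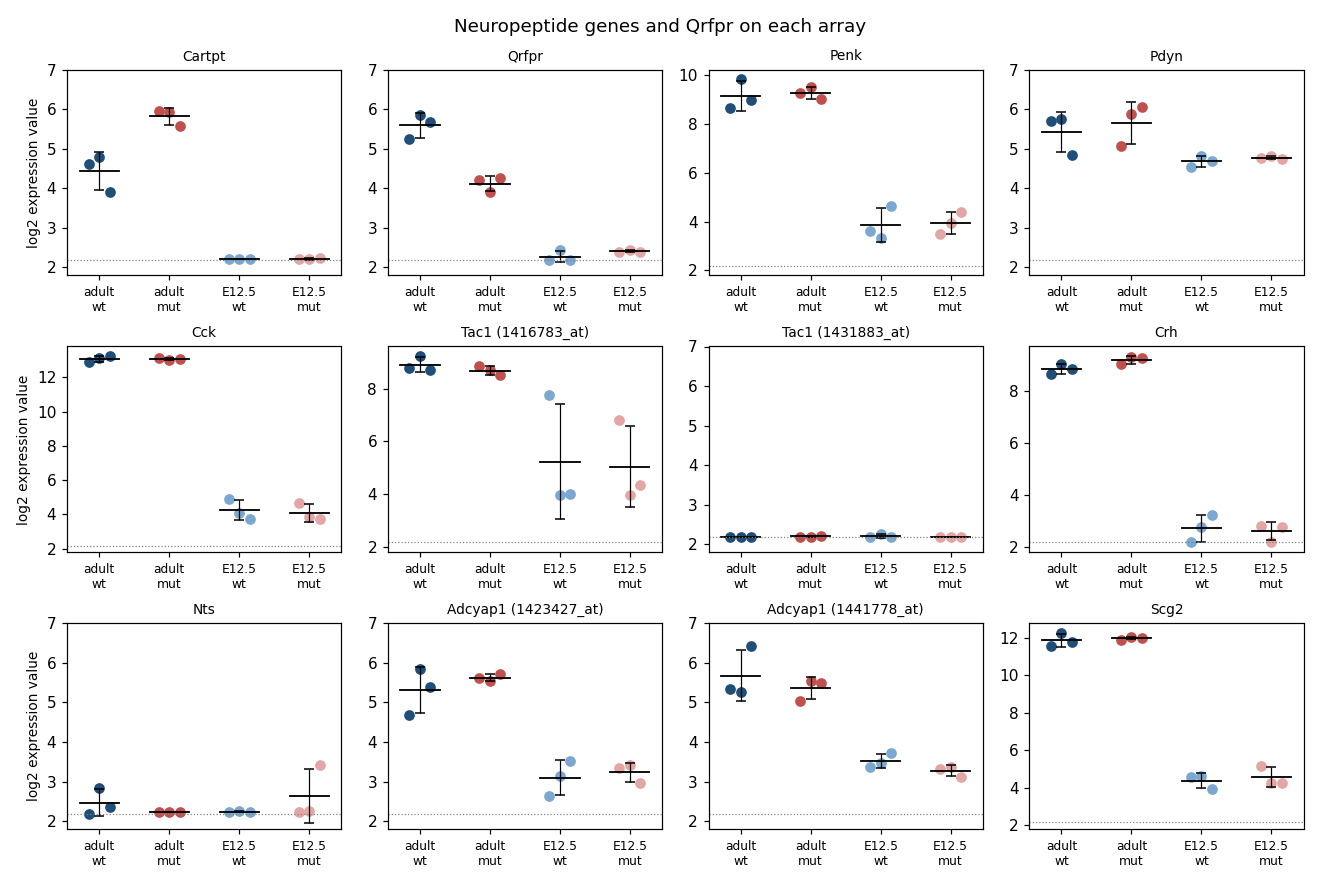
Log2 expression value (vertical axis) of the 12 probe sets on each of the 12 arrays, grouped by stage and genotype (wt, wild type; mut, Qkf gt/gt mutant). Points are single arrays in replicate order, bars are the mean and SD of 3 arrays and the dotted line is the floor. Adult mutants lie apart from adult wild types for Cartpt (5.57 to 5.95 against 3.91 to 4.80) and Qrfpr (3.90 to 4.25 against 5.25 to 5.86).

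The other 8 genes overlapped between adult genotypes. Of all 12 probe sets, those of Cartpt and Qrfpr were the 2 whose adult groups did not overlap. Such a separation was found for 9.65% of the 20292 probe sets, with 6.19% higher and 3.45% lower in mutants, and 0.0246% of them were called in this comparison. The median log2 difference over the 10 probe sets past the filter was 0.11, against 0.02 over all 20292. These counts are given as a description, since this comparison chose 2 of the genes.

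Among the opioid precursors, Penk, which encodes the enkephalins, had 8.66, 9.84 and 8.97 in adult wild types and 9.28, 9.52 and 9.03 in mutants. All mutants lay within the wild-type range, and the log2 difference was 0.12 (SE 0.38). Pdyn, which encodes the dynorphins, ran from 4.84 to 5.76 in wild types and from 5.06 to 6.05 in mutants. Its difference was 0.23 (SE 0.27), and by age pair it was -0.63, 0.12 and 1.21, with no common sign.

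Cck, the cholecystokinin precursor, had the smallest adult difference of the 10 fitted probe sets, at 12.88 to 13.21 in wild types and 12.98 to 13.14 in mutants (difference -0.01, SE 0.29). Tac1, the precursor of substance P and neurokinin A, had 8.80, 9.25 and 8.72 against 8.85, 8.71 and 8.52 (difference -0.23, SE 0.95). That SE is widened by the embryos described below, whose spread enters the shared estimate. Crh, the corticotropin-releasing hormone gene, had 8.64, 9.04 and 8.84 in wild types and 9.01, 9.29 and 9.27 in mutants. Mutant 1 fell between wild types 3 and 2, so the groups overlapped, while the mutant was higher in each age pair, by 0.37, 0.25 and 0.43.

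The 2 probe sets of Adcyap1, the gene of the peptide PACAP, differed in sign in adult mutants. Probe set 1423427_at read 4.69, 5.84 and 5.40 in wild types and 5.55 to 5.73 in mutants (difference 0.32, SE 0.28). Probe set 1441778_at read 5.34, 5.27 and 6.43 in wild types and 5.04 to 5.54 in mutants (difference -0.32, SE 0.27). Wild type 1 was the lowest adult on the first and wild type 3 the highest adult on the second, and the difference was 0.01 on the first without wild type 1 and 0.05 on the second without wild type 3. Scg2, a granin that helps form dense-core vesicles, ran from 11.57 to 12.26 in wild types and 11.90 to 12.04 in mutants (difference 0.11, SE 0.28). Nts, the neurotensin precursor, was near the floor on 4 of 6 adult arrays, with 2.85 on wild type 2 and 2.35 on wild type 3.

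**Figure D2:**
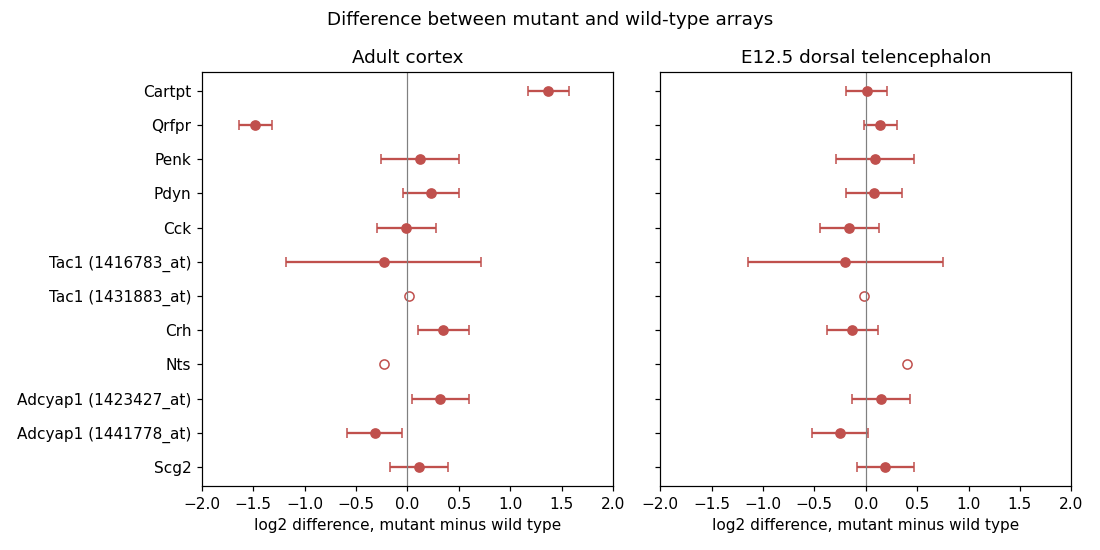
Log2 difference, mutant minus wild type (horizontal axis), of each probe set in adult cortex (left) and E12.5 dorsal telencephalon (right), 3 arrays a group. Bars are the SE of the fit over all 12 arrays, and open points are the 2 probe sets below the filter, which were not fitted. In adults Cartpt stands at 1.37 and Qrfpr at -1.48, and in embryos the fitted values run from -0.25 to 0.19.

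Wild type 1 was the lowest of the 6 adult arrays for Penk, Cck, Scg2, Crh and the first Adcyap1 probe set. The activity-regulated genes, a list of 22 measured immediate early and related genes, averaged 7.11 on that array and 7.38 to 7.80 on the other 5 adults. Of the list, 17 genes had a higher mean in adult mutants and 4 a lower one, and its level ran from 7.11 to 7.80 in wild types and from 7.38 to 7.78 in mutants. Wild type 2 was the highest adult array for this list, and for Penk, Tac1, Scg2, Qrfpr and the first Adcyap1 probe set. The part of these patterns in the neuropeptide values was not tested. For Cartpt the lowest adult array was wild type 3.

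Penk, Tac1 and Pdyn are abundant in striatum and Cartpt in hypothalamus, so markers of neighbouring regions were read on the same arrays. The 12 measured striatum markers averaged 5.32 to 5.63 in adult wild types and 5.34 to 5.50 in adult mutants, with 6 genes higher and 4 lower in mutants and 3 near the floor in both groups, Drd2 among them. The 12 hypothalamus markers averaged 2.92 to 2.97 and 2.92 to 2.99, with 5 genes higher and 4 lower, and 6 near the floor in wild types and 4 in mutants. The 9 claustrum and subplate markers averaged 6.94 to 7.46 and 6.93 to 7.13, with 6 higher and 3 lower in mutants. Of their 14 fitted probe sets 11 had a positive difference. By limma 3 had an unadjusted p under 0.05, against 4.58% of all 20292 probe sets, and 0 were called, against 0.0246%. Such an unadjusted p was found for 4 of 39 excitatory neuron, 2 of 20 hippocampus, 1 of 18 striatum and 1 of 26 interneuron probe sets. Whether any list differed from the share over all probe sets was not tested. The 21 cortical interneuron markers averaged 7.83 to 7.95 and 7.73 to 7.94, with 9 higher and 11 lower. The means of these 4 lists overlapped between adult genotypes.

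The other marker lists were read in the same way. The 11 hippocampus markers averaged 6.08 to 6.14 in adult wild types and 5.97 to 6.13 in adult mutants, with 2 genes higher and 7 lower in mutants. The 10 Cajal-Retzius markers averaged 4.24 to 4.30 and 4.21 to 4.23, with 4 higher and 5 lower, and theirs was the mean that separated the adult genotypes, by a narrow margin. The 9 thalamus and habenula markers averaged 5.19 to 5.31 and 5.19 to 5.25, with 5 higher and 2 lower. The 15 excitatory neuron markers averaged 10.15 to 10.33 and 10.25 to 10.33, with 8 higher and 7 lower. The 10 ventral telencephalon markers averaged 3.93 to 4.04 and 3.70 to 4.09, with 2 higher and 3 lower. The 11 choroid plexus and hem markers averaged 4.03 to 4.15 and 4.00 to 5.11, with 5 higher and 4 lower. The part of any of these lists in the values of Cartpt and Qrfpr was not tested.

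In embryonic mutants none of the 10 fitted probe sets was called by limma, where 0.0641% of all 20292 were. At an unadjusted p under 0.05 there were 0 as well, and the lowest unadjusted p was 0.381. The fitted differences ran from -0.25 for the second Adcyap1 probe set (SE 0.27, 3 arrays a group) to 0.19 for Scg2 (SE 0.28). None of the 12 probe sets separated the genotypes, against 7.65% of all probe sets. The count of calls was 0 under each of the 23 alternatives run. Cartpt lay between 2.21 and 2.24 on all 6 embryonic arrays and Qrfpr between 2.19 and 2.43, so a lower level in the mutants could not have been measured there. The mutant effect in adults minus that in embryos was 1.36 for Cartpt (SE 0.28) and -1.62 for Qrfpr (SE 0.22), values that contain the adult difference that chose both genes and are given without a test. For the other fitted probe sets it ran from -0.08 for Scg2 to 0.48 for Crh.

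Tac1 divided the embryos by parental cross. Its main probe set read 7.75 in wild type 1 and 6.81 in mutant 1, the 2 embryos of the first cross, and 3.97, 3.99, 3.97 and 4.35 in the 4 embryos of the second. The embryos of the first cross were thus high in both genotypes and did not overlap with the rest. Cck also placed the first cross above the second, with 4.91 and 4.67 in the first cross and 3.74 to 4.08 in the second. Scg2 did so less clearly, with 5.18 in mutant 1, 4.57 in wild type 1 and 3.92 to 4.63 in the second cross, where wild type 2 passed wild type 1. Penk, at 3.63 and 3.49 in the first cross and 3.31 to 4.63 in the second, did not show it.

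The same 2 embryos were high in ventral telencephalon markers, genes of the tissue beside the dissected region. Dlx1 stood at 9.30 and 8.62 in them, against 2.92 to 6.14 in the second cross. Dlx2 stood at 9.04 and 8.43, against 3.20 to 5.80. The 10 measured markers averaged 5.22 and 4.78 in the first cross and 2.77 to 3.51 in the second, and 2 were near the floor on every array. For 6 of the 10, both embryos of the first cross were higher than every other embryo. The same held for 7 of 21 cortical interneuron markers, a list that shares Dlx1 and Dlx2, for 4 of 15 excitatory neuron markers and for 1 of 11 hippocampus markers. The share over all probe sets was not counted, so these counts are descriptions only. Sst, the precursor of somatostatin, was lower in both embryos of the first cross, at 3.10 in wild type 1 and 4.26 in mutant 1 against 4.55 to 5.77 in the second. Camk2a, a gene of maturing excitatory neurons and no ventral marker, was also high in the first cross, at 6.46 and 5.06 against 3.05 to 4.09 in the second. The part of these genes in the Tac1 and Cck values was not tested. Mutant 1 carries a different array file code from the other 5 embryos, and the part of that in its values was not tested. Without wild type 1 the embryonic mutant difference in Tac1 went from -0.20 to 1.06, and without mutant 1 to -1.08. Without both it was 0.18, and adjusted p by limma was at least 0.827 under all alternatives.

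**Figure D3:**
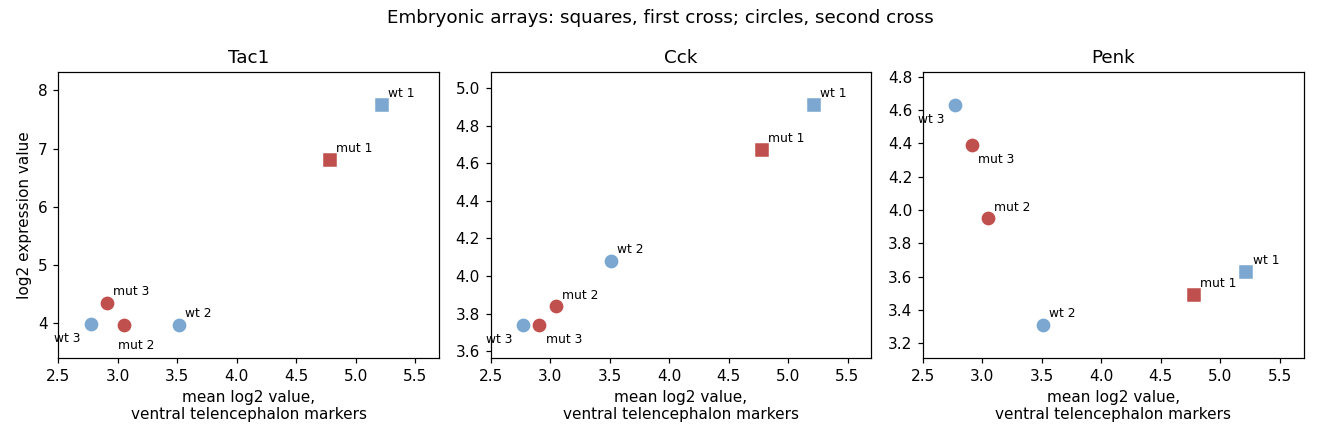
Log2 value of Tac1, Cck and Penk (vertical axis) against the mean log2 value of 10 ventral telencephalon markers (horizontal axis) on the 6 embryonic arrays. Squares are the first cross and circles the second, pale blue wild type and red mutant. Both squares are high on both axes for Tac1 (7.75 and 6.81 against 3.97 to 4.35) and Cck, and not for Penk.

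Every fitted probe set was higher in adult cortex than in embryonic telencephalon, and in both genotypes. Of the 10 fitted, 10 were called higher in adult wild types and 10 in adult mutants by limma, with 0 lower, where 35.7% of all probe sets were called higher in wild-type and 36.5% in mutant adults. Called lower were 43.5% and 43.0%, and called in either direction 79.3% and 79.5%. The median difference of the 10 was 3.51 in wild types and 3.63 in mutants, against -0.14 and -0.13 over all probe sets. Of the 10, those of Pdyn, Cck, Tac1 and Scg2 would have met the filter on the embryonic arrays alone. The other 6 entered through their adult values, so the filter favoured a higher adult value in them. Tissue, stage and array file code differ together here and cannot be told apart.

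Cck had the widest measured stage difference of the fitted probe sets. It read 3.74 to 4.91 in the 6 embryos and 12.88 to 13.21 in the 6 adults, a log2 difference of 8.82 in wild types (SE 0.29, adjusted p = 2.04e-10 by limma) and 8.98 in mutants. Scg2 followed, from 3.92 to 5.18 in embryos and 11.57 to 12.26 in adults (7.49 and 7.41). Crh went from 2.19 to 3.21 in embryos to 8.64 to 9.29 in adults (6.12 and 6.60), so that it was at the floor in 2 embryos and strong in every adult. Penk went from 3.31 to 4.63 to 8.66 to 9.84 (5.30 and 5.33).

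For the genes near the floor in embryos, Cartpt, Qrfpr and Crh, the stage difference is compressed and has no rank among the others. Tac1 differed by 3.69 in wild types (SE 0.95, adjusted p = 0.00378 by limma) and 3.65 in mutants. Leaving out the first cross altogether, a choice made once the values had been seen, gave 4.95 and 4.53. The Adcyap1 probe sets differed by 2.21 and 2.16 in wild types and by 2.39 and 2.09 in mutants, and so gave like values here. Cartpt differed by 2.24 in wild types and 3.60 in mutants, and Qrfpr by 3.32 and 1.70, with embryos of both genotypes near the floor. The gap between genotypes in these genes contains the adult difference by which they were included, and is no separate result. For the other fitted probe sets the stage differences of both genotypes were at most 0.48 apart.

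Pdyn had the smallest stage difference, from 4.54 to 4.81 in embryos to 4.84 to 6.05 in adults. The log2 difference was 0.74 in wild types (SE 0.27, adjusted p = 0.0264 by limma) and 0.89 in mutants (adjusted p = 0.0107 by limma). The wild-type call ended without adult wild type 1 (adjusted p = 0.0942 by limma) or 2 (0.103), and without embryonic wild type 1 (0.0732) or 3 (0.0526). It also ended without the filter (0.0725), with quantile normalization (0.0653) and without the first cross (0.0882). The mutant call remained under each alternative run for it, with adjusted p of at most 0.0489 by limma. Nts and the second Tac1 probe set stayed low at both stages. Nts reached 3.42 on embryonic mutant 3 and at most 2.26 on the other embryos, and the second Tac1 probe set did not pass 2.25 on any array.

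**Figure D4:**
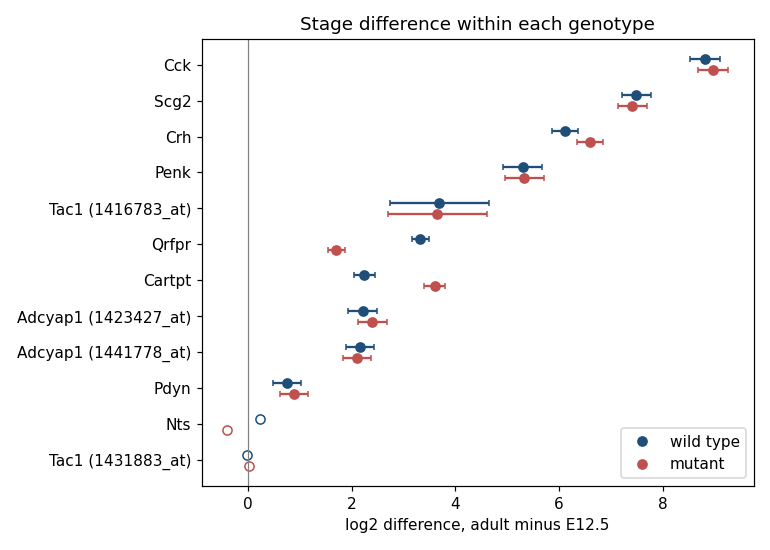
Log2 difference, adult minus E12.5 (horizontal axis), of each probe set within wild types (blue) and mutants (red), ordered by the wild-type value, 3 arrays a group. Bars are the SE of the fit and open points are the 2 probe sets below the filter. Cck is at the top with 8.82 and 8.98 and Pdyn lowest among the fitted, with 0.74 and 0.89. The genotypes part at Qrfpr (3.32 and 1.70) and Cartpt (2.24 and 3.60), a gap that contains the adult difference by which both were included.

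The receptors of these peptides were read next. Cckbr, the main brain receptor for cholecystokinin, stood at 9.48 to 9.51 in adult wild types and 9.12 to 9.37 in adult mutants, and at 2.66 to 3.44 in embryos. Cckar, the receptor best known from gut and pancreas, had the opposite stage pattern, at the floor of 2.19 on all 6 adult arrays and at 3.33 to 5.46 in embryos. Cckbr met the filter only through the adults and Cckar only through the embryos. The filter thus favoured a stage difference in both, and no test of that difference is given. In the adult mutants Cckbr differed by -0.24 (SE 0.20), and its second probe set, which varied from 2.94 to 6.39 among adults, by -0.45 (SE 0.70).

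Among opioid receptors, the kappa receptor gene Oprk1, whose ligands come from Pdyn, read 3.66, 5.09 and 4.21 in adult wild types and 6.01, 5.44 and 4.54 in adult mutants. Its difference of 1.01 (SE 0.37) did not pass (adjusted p = 1.0 by limma), and mutant 3 lay below wild type 2. All 4 probe sets of the mu receptor gene Oprm1 stayed between 2.19 and 2.47, and that of the delta receptor gene Oprd1 between 2.19 and 2.34. Of the tachykinin receptors, Tacr3, which prefers neurokinin B, read 3.57 to 3.82 in adult wild types and 2.64 to 3.12 in adult mutants (difference -0.84, SE 0.23, adjusted p = 0.721 by limma). These adult values lie below the filter value of 4, which the probe set met only through embryos, at 3.57 to 4.57. A second Tacr3 probe set differed by -0.25, and another did not pass 2.39 on any array. Tacr1, the substance P receptor gene, was at the floor on every array.

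Crhr1, the main cortical receptor for corticotropin-releasing hormone, was 5.67 to 5.96 in adults and 2.86 to 3.51 in embryos on its main probe set. A second probe set, below the filter, read 2.64 to 4.80 in adults and 2.42 to 2.52 in embryos. Crhbp, whose product binds the hormone outside cells, was 6.94 to 7.74 in adults and 2.52 to 3.49 in embryos. Like Crh, Crhbp and the main Crhr1 probe set met the filter only through the adults, so the filter favoured a stage difference in them. The neurotensin receptor gene Ntsr2, known from astrocytes, was 10.21 to 11.00 in adults, where Nts itself was at most 2.85, and 2.59 to 3.05 in embryos. Adcyap1r1, the PACAP receptor gene, stood at 8.82 to 9.17 in adults on its main probe set. Its other probe sets did not pass 3.11 on any array. In embryos the main probe set was 4.38 and 5.25 in the first cross and 6.03 to 6.33 in the second, the reverse of the Tac1 order.

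The remaining receptors, and a convertase, were read on the same arrays. Ntsr1, the other G protein-coupled neurotensin receptor gene, was 3.30 to 3.71 in adults and 2.47 in every embryo. Sort1, which encodes the neurotensin-binding sorting receptor sortilin, was 10.58 to 10.79 in adults and 7.77 to 8.42 in embryos on its main probe set. Vipr1, a receptor gene shared by VIP and PACAP, was 4.91 to 5.44 in adults and 2.56 to 4.12 in embryos on 1 probe set and at the floor on the other. Vipr2, the related receptor gene, did not pass 2.37 on any array. Crhr2, the second receptor gene for the Crh family, ran from 3.06 to 3.32 on 1 probe set and was at the floor on the other. The convertase gene Pcsk1 reached 2.86 on adult wild type 2 and at most 2.30 elsewhere, and Pcsk2 was not analysed here.

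The wider pathway was counted in the same way. The 4 pathway lists held 139 other genes, of which 128 had a probe set and 70 met the filter, with 107 probe sets. By limma 0 of the 107 were called in adult mutants and 0 in embryonic mutants. Over all 20292 probe sets 0.0246% and 0.0641% were called, so counts of 0 do not set the pathway apart. At an unadjusted p under 0.05 there were 11 and 6 of the 107. Over all 20292 probe sets, 4.58% and 4.53% had such a p, 930 and 920 in number. In wild types 70 of the 107 were called higher and 25 lower in adults, where 35.7% and 43.5% of all probe sets were. In mutants 71 were called higher and 26 lower, against 36.5% and 43.0%. Of the 107, 33 had under 3 embryonic arrays over 4, and 10 had under 3 adult arrays over 4. The filter favoured a stage difference in those, and the stage counts are descriptions.

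Genes that process precursors or build dense-core vesicles were called higher in adult wild types for 31 of 35 probe sets and lower for 1, with a median difference of 3.09. Over all probe sets 35.7% were higher and 43.5% lower, with a median of -0.14, and 8 of the 35 met the filter only through adults. On its main probe set Cpe, which encodes carboxypeptidase E, went from 12.27 to 12.42 in embryos to 14.76 to 14.86 in adults. Its other probe set was at the floor on every array. Pam, the amidating enzyme, went from 7.18 to 7.81 in embryos to 9.20 to 9.71 in adults. The granin gene Chgb had the lowest p of this list in embryonic mutants, at 5.47 to 5.69 against 5.86 to 6.37 in wild types (difference -0.52, SE 0.14, adjusted p = 0.532 by limma). Its groups did not overlap in embryos, as for 7.65% of all probe sets, whereas in adults they did (difference -0.05). Scg3, another granin, had the next lowest p (-0.28, SE 0.11, adjusted p = 0.956 by limma). In adult mutants the convertase gene Pcsk5 came first (-0.43, SE 0.13, adjusted p = 0.844 by limma), and its other fitted probe set differed by 0.12. Next in adults were the secretory granule gene Resp18 (-0.40), the carboxypeptidase D gene Cpd (-0.37) and the convertase gene Furin (0.22), and in embryos the convertase gene Pcsk6 (0.54) and the vesicle gene Rph3a (-0.33), all with an adjusted p of 1.0 by limma. Resp18 read 10.16 to 10.31 in adult wild types and 9.76 to 9.89 in adult mutants. These groups did not overlap, as for 9.65% of all probe sets in adults.

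Other precursor genes were called higher in adult wild types for 7 of 11 fitted probe sets and lower for 0, against 35.7% and 43.5% of all probe sets. Of the 11, 6 had under 3 embryonic arrays over 4 and so met the filter through adults, Vip, Grp and Tac2 among them. The filter thus favoured a stage difference in them. Agt, also among them, differed by 0.51 in wild types and was not called (adjusted p = 0.339 by limma). Vip was 10.49 to 10.87 in adults and 2.46 in 5 of 6 embryos, with 3.95 on embryonic mutant 3, the array where Nts was also highest. Npy was 10.09 to 10.53 in adults and 3.57 to 4.47 in embryos, and Sst 11.11 to 11.58 and 3.10 to 5.77. In adult mutants the lowest p of the list were those of Tac2, the neurokinin B precursor (-0.45, SE 0.17), and Grp, gastrin-releasing peptide (-0.57, SE 0.24), both with an adjusted p of 1.0 by limma. Grp read 8.41 to 8.75 in wild types and 7.49, 7.76 and 8.67 in mutants. Next were Pnoc, the nociceptin precursor (0.21), and the angiotensinogen gene Agt (0.66), and in embryos the endothelin gene Edn1 (0.30), Npy (-0.48), Vip (0.50) and the apelin gene Apln (-0.28), each with an adjusted p of 1.0 by limma.

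Receptor genes were called higher in adult wild types for 22 of 29 probe sets and lower for 5, with 16 that met the filter only through adults and 5 only through embryos. Peptide-degrading enzymes had 10 of 32 probe sets higher and 19 lower, with a median of -0.80, and with 3 that met it only through adults and 5 only through embryos. Over all probe sets 35.7% were higher and 43.5% lower, with a median of -0.14, and the difference of either list from that was not tested. After Tacr3, the receptor gene with the lowest p in adult mutants was the melanin-concentrating hormone receptor gene Mchr1 (0.39, adjusted p = 0.924 by limma). Its other fitted probe sets differed by 0.07 and -0.10. Next were Oprk1 and the thyrotropin-releasing hormone receptor gene Trhr (0.64). In embryonic mutants the receptor genes with the lowest p were the nociceptin receptor gene Oprl1 (-0.44), Sort1 (-0.21), Vipr1 (0.41) and Crhr1 (-0.20), each with an adjusted p of 1.0 by limma. Among the degrading enzymes, the endopeptidase-like gene Prepl had the lowest p in adult mutants, where 1 of its probe sets read 8.43 to 8.57 in wild types and 7.85 to 8.11 in mutants (-0.47, SE 0.10, adjusted p = 0.435 by limma). Its other 3 fitted probe sets differed by 0.05, -0.14 and 0.45. It was followed by the pyroglutamyl peptidase gene Pgpep1 (-0.59, adjusted p = 0.554 by limma), the endothelin-converting enzyme gene Ece1 (0.37, 0.712) and Ide (0.27, 0.995). The other fitted probe sets of Ece1 differed by 0.37 and -0.03 in adult mutants, and those of Ide by -0.10 to 0.19. This Pgpep1 probe set, 1460001_at, stood at 2.96 to 3.75 in adults, below the filter value of 4. In embryonic mutants the insulin-degrading enzyme gene Ide had the lowest (0.39, SE 0.15, adjusted p = 0.956 by limma), with other probe sets of it between -0.36 and 0.33. It was followed by Pgpep1 (0.62, adjusted p = 0.956 by limma), here on another probe set, 1439858_at, which was at the floor in all adults. Next were the oligopeptidase genes Nln (-0.17) and Thop1 (0.21).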

How the data were processed

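Each of the 12 Affymetrix arrays carried total RNA of dorsal cortex or dorsal telencephalon, amplified over 2 rounds and biotin-labelled, per the labels' protocols. The deposited values are log2 expression values that the authors made with GCRMA, per the submitters' processing notes, with no version or settings given. The arrays carry no counts, and their number limits the precision.

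These values were analysed without further scaling. The platform annotation gave 34945 probe sets 1 symbol, updated by gene ID against RefSeq (GRCm38.p6). Each probe set was fitted on its own with limma (version 3.58.1, R 4.3.3; lmFit, eBayes, 4 group means, 8 residual degrees of freedom) where its value was over 4 on at least 3 arrays. The fit was tested on simulated data. The genes and lists were chosen with earlier results of these data known. All probe sets of the 10 genes, the genes of their receptors and processing enzymes, the 4 lowest p of each pathway list and the 3 closest patterns were named. For some of the receptors and enzymes not every probe set is given.

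Replicate numbers follow accession order; the labels pair arrays by age or cross. Deviations from the group mean correlated at 0.13 to 0.45 within a cross and at -0.30 to -0.23 between crosses, and at 0.01, 0.19 and 0.22 in the age pairs, so pairing of the adults was not clear. The pairs entered only an alternative. P-values set a difference between group means against the spread of these arrays within groups, pooled over the 4 groups.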

Additional observations from a re-analysis of the deposited data

How the results depend on the processing

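Of 876 single differences recomputed over 23 alternatives (filters, 1 probe set per gene, probe set types, scaling, variance models, separate stages, the pairs as a block, each array left out, and the first cross left out), 869 stayed on the same side of the threshold or, for the untested adult differences, moved by less than 1 SD, no called value changed sign, and the 7 others were the Pdyn wild-type stage calls given above. With the age pair or parental cross as a replicate block, 0 probe sets of the 10 genes were called in embryonic mutants, as without it, and the adult median stayed at 0.11. Leaving out single arrays gave 0 calls in embryonic mutants throughout, 9 to 10 stage calls in wild types and 10 in mutants. It moved the adult median difference of 0.11 to between -0.07 (without adult wild type 1) and 0.35 (without adult wild type 2), so that median has no settled sign. With 1 probe set per gene, 60 of 70 other pathway probe sets were called by stage in wild types and 61 in mutants, against 95 and 97 of 107, since fewer were tested. Over all probe sets, 5 were called in adult and 13 in embryonic mutants; the counts were 0 and 1 with each stage fitted on its own, 1 and 3 with the pairs as a block, 12 and 66 with array weights, 6 and 4 with 1 probe set per gene, 3 and 10 with an intensity trend, 1 and 36 without the first cross, and 0 to 4 and 6 to 16 with single arrays left out. Probe sets near the floor limit what can be seen of Cartpt, Qrfpr, Crh and Nts in embryos.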
